A study of Mus musculus with 14 samples.

Results

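Expression of interferon-stimulated genes in epididymal fat was followed over 42 genes, taken as the rows of the deposited gene table whose symbol is on a list of such genes, out of 23282 genes in the table. Each of the 42 symbols matched 1 row. The 14 libraries were prepared from epididymal white adipose tissue (eWAT), the visceral fat pad beside the epididymis, by QuantSeq 3′-mRNA sequencing, in which cDNA is primed at the poly(A) tail and reads fall near the 3′ end of a transcript. All mice were wild-type C57BL/6J males, 4 or 5 weeks old at the start (the sources differ), that were fed either a normal diet (controls) or a Western diet (WD) for 20 weeks. The labels place 4 controls and 5 WD mice in batch 1 and 5 further controls in batch 2, without saying what a batch stands for. Every WD library belonged to batch 1, so that in a comparison of WD with the batch 2 controls diet and batch cannot be told apart. In a bulk tissue, more cells of a type and more RNA per cell cannot be told apart either.

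Interferons are secreted proteins that cells release on sensing foreign or misplaced nucleic acids. Type I interferons act through the receptor chains IFNAR1 and IFNAR2 and through a complex that holds STAT2 and IRF9 and binds the interferon-stimulated response element (ISRE) in promoters, whereas interferon gamma acts through the gamma-activated site (GAS). The genes switched on in this way encode nucleic acid sensors, antiviral effectors, GTPases and the transcription factors that carry the response on, and in fat they are known to be expressed by adipocytes as well as by resident macrophages.

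The promoters of 4 members are shown because the results below turn on Trim30a, Lgals3bp and Ubd, and because Isg15 is a classical target with which to compare them. Each sequence runs 5′ to 3′ on the gene's own strand from 250 bases before to 50 bases after an annotated start, from RefSeq on GRCm38.p6, with matches to an ISRE or a GAS in capitals. The ISRE was searched as GAAANNGAAA on both strands and the GAS as TTCNNNGAA, which reads the same on both strands.
Isg15, minus strand of chr4:156200769-156201068: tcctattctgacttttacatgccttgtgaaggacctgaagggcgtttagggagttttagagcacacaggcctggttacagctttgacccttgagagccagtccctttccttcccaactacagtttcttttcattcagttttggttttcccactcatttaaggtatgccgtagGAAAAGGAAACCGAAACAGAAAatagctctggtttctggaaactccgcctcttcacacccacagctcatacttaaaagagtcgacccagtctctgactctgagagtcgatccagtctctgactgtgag
Trim30a, minus strand of chr7:104465144-104465443: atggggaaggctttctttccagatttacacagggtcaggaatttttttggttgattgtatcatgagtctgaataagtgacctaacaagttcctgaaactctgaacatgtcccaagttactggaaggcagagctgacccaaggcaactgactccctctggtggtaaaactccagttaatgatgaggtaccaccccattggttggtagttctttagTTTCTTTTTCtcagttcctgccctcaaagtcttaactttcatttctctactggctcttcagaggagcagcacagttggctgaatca
Lgals3bp, minus strand of chr11:118401910-118402209: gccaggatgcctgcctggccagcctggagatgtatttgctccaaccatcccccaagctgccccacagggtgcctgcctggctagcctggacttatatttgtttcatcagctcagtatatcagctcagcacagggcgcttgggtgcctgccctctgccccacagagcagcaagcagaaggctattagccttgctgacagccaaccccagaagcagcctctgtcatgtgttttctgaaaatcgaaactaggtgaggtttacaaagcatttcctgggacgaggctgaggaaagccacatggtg
Ubd, plus strand of chr17:37193642-37193941: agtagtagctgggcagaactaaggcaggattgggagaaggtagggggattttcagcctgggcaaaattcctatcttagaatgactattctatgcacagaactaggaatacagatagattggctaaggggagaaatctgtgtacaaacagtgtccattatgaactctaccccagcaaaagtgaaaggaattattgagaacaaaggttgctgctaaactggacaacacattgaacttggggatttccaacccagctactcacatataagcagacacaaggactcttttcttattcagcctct
The Isg15 promoter held 3 overlapping ISRE matches, the Trim30a promoter held 1, and no match to either motif lay in the windows of Lgals3bp and Ubd. RefSeq promoters were at hand for 33 members. An ISRE match lay in 18 of these 33 (54.5%), against 1079 of 27025 genes with a promoter in the table (3.99%), and a GAS match in 9 of 33 (27.3%), against 2582 genes (9.55%). A match describes the letters only. The 17 tested members with an ISRE match had a median log2 fold change of 0.86 for WD against the batch 1 controls, and the 15 tested members whose window had none had 1.25. For Mx1, Mx2, Zbp1, Dhx58, Iigp1, Parp14, Usp18, Oas2 and Parp9 no promoter was matched.

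Total counts were between 10278970 and 13712254 per library. The levels below are in CPM, the count scaled to the TMM-adjusted size of its library. Scaled to the unadjusted totals instead, 3 counts corresponded to between 0.219 and 0.292. With the TMM adjustment this range shifts, and 3 counts of Ifit1 in batch 1 control 1 were 0.324 CPM. Adipoq, the adipocyte hormone gene, was counted in all 14 libraries, but 2 batch 1 controls stood apart from the rest. Control 4 of batch 1 had a count for 7999 genes, whereas the other 13 libraries had at least 10903, and control 1 of batch 1 had 4.63% of its counts on genes of the epididymis, against at most 0.00652% elsewhere. Summed over 8 adipocyte markers, control 1 reached 6230 CPM, where the other 13 libraries had 25100 to 65300 CPM. Member results that rest on these controls are given with and without them, and those of the cell type marker lists with them only.

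Most members were expressed at low levels. Only 14 of the 42 had more than 3 counts in every library, and 28 were at 0 in at least 1 library. The number of members at 0 was 12, 11, 8 and 22 in batch 1 controls 1 to 4, from 0 to 7 in the WD libraries and from 2 to 5 in the batch 2 controls. In batch 1 control 4 the members at 0 were 52.4% of the list, beside 38.4% of the 12653 genes tested over all libraries. The mean log2(CPM + 1) over the 42 members was 2.40, 2.83, 2.88 and 2.08 in batch 1 controls 1 to 4. It was 4.01, 3.96, 4.08, 3.57 and 3.45 in WD mice 1 to 5, and 3.24, 3.13, 3.36, 3.72 and 2.90 in batch 2 controls 1 to 5. All 5 WD libraries thus lay above all 4 batch 1 controls on this scale, whereas batch 2 control 4 lay above WD mice 4 and 5. All 5 batch 2 controls also lay above all 4 batch 1 controls, if narrowly (2.90 beside 2.88), although both were on the normal diet. A mean on this scale falls in a library with many zeros, and it was not taken over all genes. Whether this order of the groups is particular to the members was therefore not tested.

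**Figure D1:**
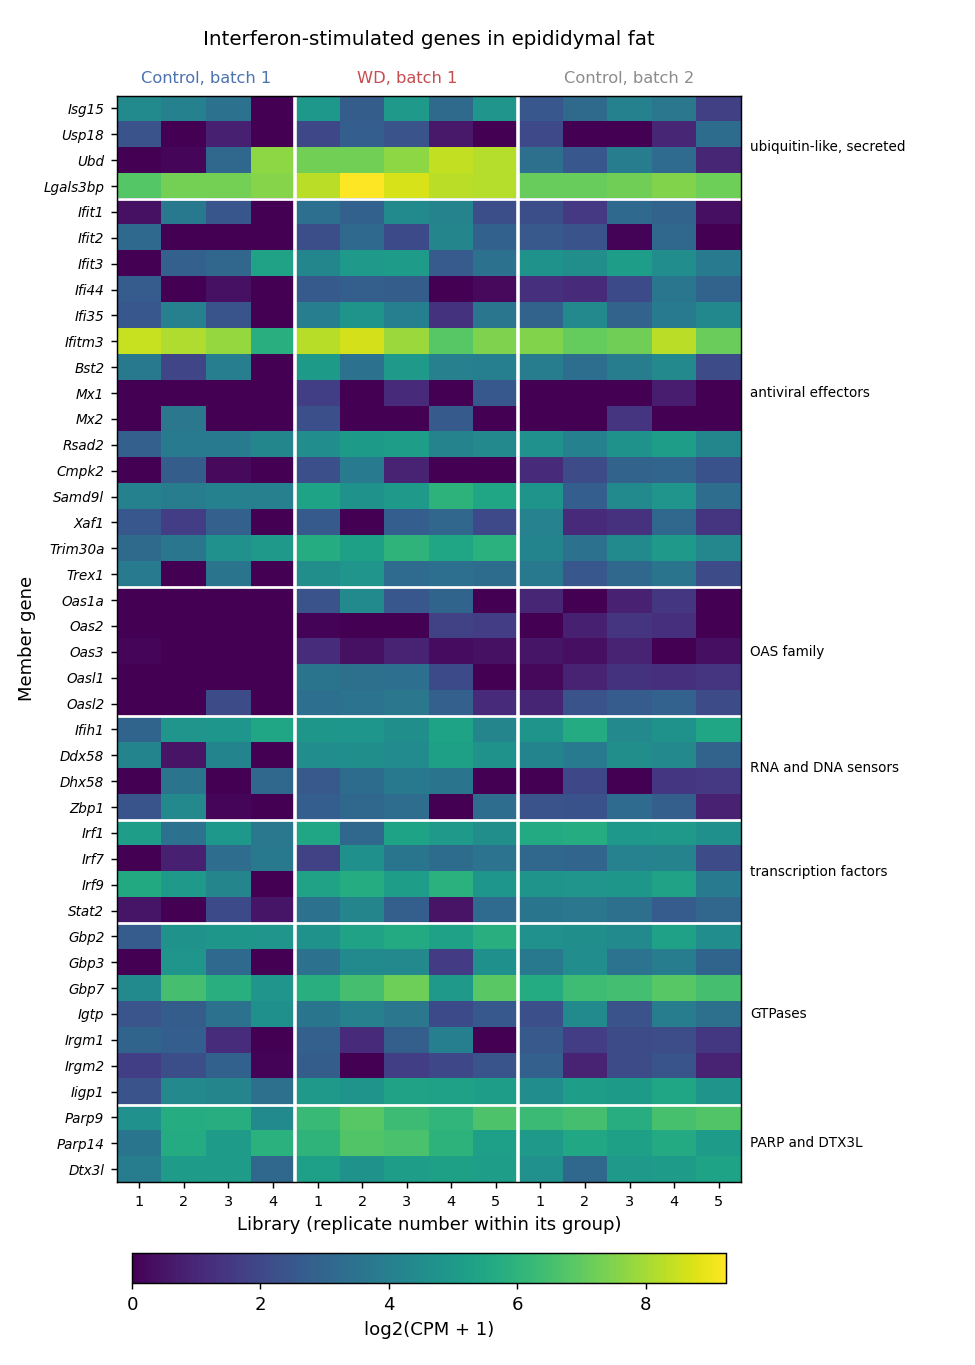
Level of each of the 42 interferon-stimulated genes (rows, grouped by role) in each of the 14 libraries (columns), as log2(CPM + 1) from dark (0) to bright. Many members are dark in the batch 1 controls, most of all in control 4 with 22 of 42 at 0, and Lgals3bp, Ifitm3 and, in WD mice, Ubd are the bright rows.

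**Figure D2:**
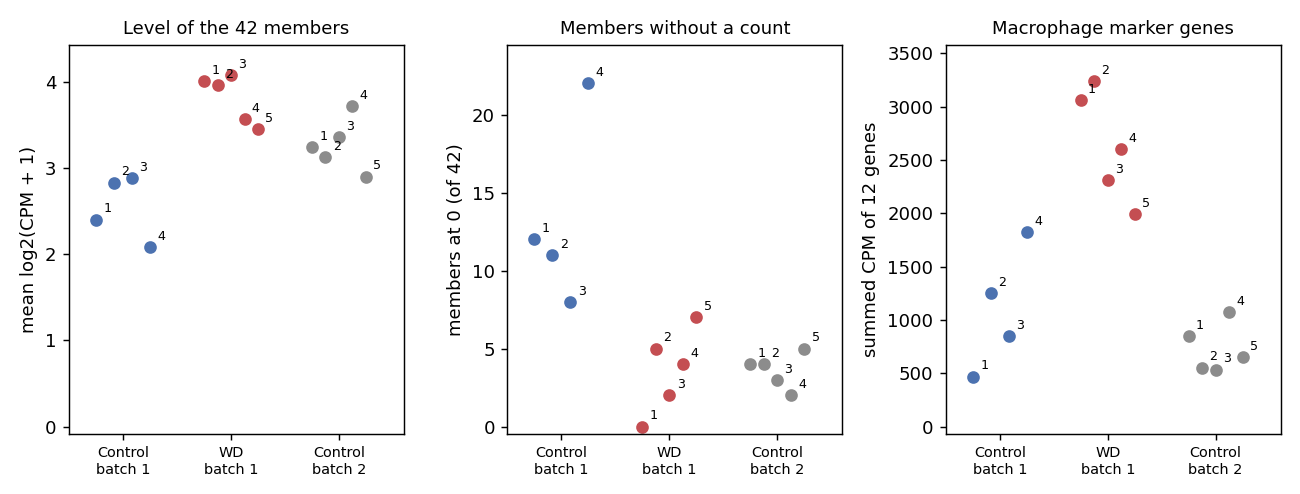
Mean log2(CPM + 1) of the 42 members (left), number of members at 0 (middle) and summed CPM of 12 macrophage marker genes (right), with 1 point per library, its replicate number beside it and the 3 groups on the horizontal axis. All WD points lie above the batch 1 controls for the members and for the macrophage genes. The batch 2 controls lie mostly between them for the members, and for the macrophage genes, at 534 to 1070 CPM, within the range of the batch 1 controls.

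The question of the diet was asked first within batch 1, where 38 of the 42 members passed edgeR's filter on low counts. No member passed a false discovery rate (FDR, the p adjusted by the Benjamini-Hochberg method over all genes tested) of 0.05 with edgeR's quasi-likelihood test, and neither did any other gene (0 of 12157 higher, 0.0%), while 628 genes had an unadjusted p under 0.05. At an unadjusted p under 0.05, 7 of 38 members (18.4%) were higher in WD mice, against 3.35% of all genes tested, and 0 were lower. These were Lgals3bp, Samd9l, Trim30a, Oas1a, Oasl1, Iigp1 and Parp9. Oas1a and Oasl1 had no count in any batch 1 control and thus passed the filter only through the WD libraries, in which they were high. When genes with no count in a whole group were set aside, a choice made after seeing the data, 5 of 36 members (13.9%) and 2.74% of all genes were higher, and 34 of the 36 members had a fitted value above 0, with a median of 1.03. DESeq2 called 3 members, of which Oas1a and Oasl1 again had a whole group at 0 and Lgals3bp did not, and 114 genes in all. In 6 of 38 members (15.8%) every WD library lay above every batch 1 control, against 3.03% of all genes. The fitted log2 fold change was above 0 in 36 of 38 members, beside 51.8% of all genes, and in 33 of 38 with DESeq2's size factors. The median over the members was 1.09 on the log2 scale and that over all genes 0.03, and with no filter it was 1.17 over all 42 members. Without batch 1 control 4 the members' median was 0.99, and without controls 1 and 4 it was 0.85 over the 42 members then tested. Of these, 8 had an unadjusted p under 0.05 and 1, Ubd, passed the FDR. Over all 13576 genes tested in that fit, 1279 had an unadjusted p under 0.05 and 108 passed the FDR. Control 4 was the batch 1 control in which Ubd lay within the WD range.

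Against the batch 2 controls, where diet and batch cannot be told apart, 3 of 38 members (7.89%) were higher in WD mice at an FDR of 0.05, against 3.93% of all genes, and 0 were lower. These 3, Ubd, Lgals3bp and Trim30a, were also the members whose groups did not overlap, against 4.99% of all genes with WD above. At an unadjusted p under 0.05, 9 members (23.7%) were higher, against 9.83% of all genes. The fitted log2 fold change was above 0 in 29 of 38 members, beside 49.8% of all genes, with a median of 0.41. The WD libraries are the same in both comparisons, which are therefore not independent of each other.

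The batch 2 controls were then set against the batch 1 controls, both on the normal diet. No member and no gene passed an FDR of 0.05 with edgeR (0 of 12106 higher, 0.0%), 895 genes had an unadjusted p under 0.05, and DESeq2 called 0 members and 111 genes. At an unadjusted p under 0.05 the members Stat2, Iigp1, Oasl1 and Parp9 were higher in batch 2 (4 of 37, 10.8%, against 3.85% of all genes). The same 4 did not overlap between the batches, against 4.13% of all genes. Oasl1 had no count in any batch 1 control and entered only through batch 2, and with such genes set aside 3 of 36 members (8.33%) were left by either rule, against 3.48% and 3.94% of all genes, and the members' median was 0.48. The fitted value was above 0 in 28 of 37 members, beside 49.9% of all genes, with a median of 0.58 against -0.00 over all genes. With DESeq2's size factors it was above 0 in 25 members. Without batch 1 controls 1 and 4 the median was 0.44. When WD mice were compared with all 9 controls, 1 of 38 members (2.63%), Lgals3bp, passed an FDR of 0.05, against 0.435% of all genes. At an unadjusted p under 0.05, 8 members (21.1%) were higher, against 4.48%, and Lgals3bp and Trim30a did not overlap (5.26%, against 1.13%).

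**Figure D3:**
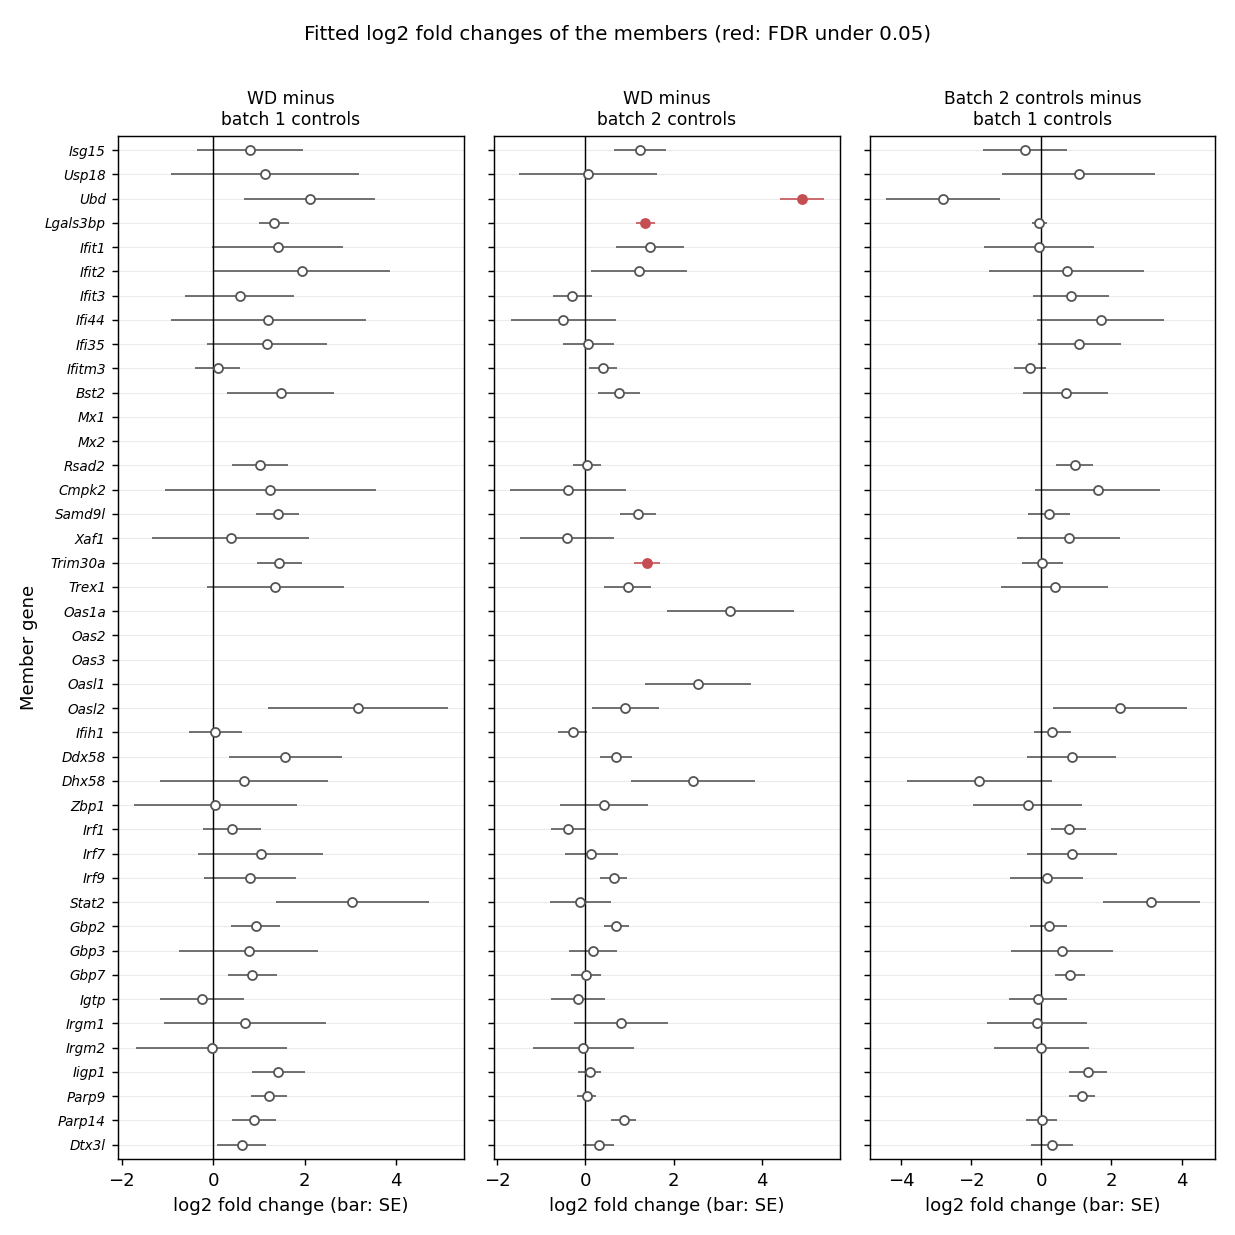
Fitted log2 fold change of each tested member, with its SE as a bar, in 3 comparisons: WD against batch 1 controls, WD against batch 2 controls, and batch 2 against batch 1 controls. Filled red points passed an FDR of 0.05 and members with a whole group at 0 are left out. Only Ubd, Lgals3bp and Trim30a are red, all in the middle panel, and Stat2, Iigp1 and Parp9 lie to the right in the outer panels and near 0 in the middle.

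Among the secreted and ubiquitin-like members, Lgals3bp and Ubd gave the clearest separation of WD mice from controls. Lgals3bp (chr11:118392752-118401931, mm10, minus strand) encodes a secreted glycoprotein that binds galectins. Its level was 112, 160, 158 and 188 CPM in batch 1 controls 1 to 4. It was 313, 608, 412, 312 and 295 CPM in WD mice 1 to 5, and 135, 135, 151, 179 and 146 CPM in batch 2 controls 1 to 5. Every WD library lay above all 9 controls, with WD mouse 2 the highest, and the 2 sets of controls overlapped. Lgals3bp had a log2 fold change of 1.33 ± 0.32 (SE) against the batch 1 controls (edgeR FDR = 0.434), 1.36 ± 0.21 against the batch 2 controls (edgeR FDR = 0.00088) and 1.34 ± 0.21 against all 9 (edgeR FDR = 0.00647). Between the batches of controls it was -0.06 ± 0.22. With batch as a covariate over all 14 libraries the value was 1.31 with an FDR of 0.0944, which ends the call. Over all genes, 1 passed in that fit, in place of 67. DESeq2 gave Lgals3bp an FDR of 0.0194 in batch 1.

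Ubd (chr17:37193892-37196101, plus strand) encodes FAT10, a ubiquitin-like modifier that is induced by interferon gamma together with tumor necrosis factor. Its level was 0, 0.0834, 7.67 and 204 CPM in batch 1 controls 1 to 4, and 155, 155, 203, 336 and 298 CPM in WD mice 1 to 5. In batch 2 controls 1 to 5 it was 9.67, 4.77, 14.1, 8.33 and 0.998 CPM. Of the 9 controls, 8 lay at or under 14.1 CPM, and every WD mouse lay at 155 CPM or more. Batch 1 control 4, the library with the fewest genes counted, lay within the WD range. On the log2 scale the difference was 4.90 ± 0.50 against the batch 2 controls (edgeR FDR = 1.99e-05) and 2.11 ± 1.44 against the batch 1 controls (edgeR FDR = 1.0). Without batch 1 control 4, the latter was 6.43 ± 1.28 (edgeR FDR = 0.0585), and without controls 1 and 4 it was 5.88 ± 1.03 (edgeR FDR = 0.0174). In a single fit over the 3 groups, the call against the batch 2 controls was lost (FDR = 0.0994). Over all genes, 140 passed in that fit, in place of 773.

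Isg15, which encodes a ubiquitin-like protein named for its induction by interferon, and Usp18, whose protease removes it, did not separate the groups. Isg15 was at 20.4, 15.8, 10.1 and 0 CPM in batch 1 controls 1 to 4, at 29.6, 5.69, 30.8, 8.23 and 27 CPM in WD mice 1 to 5, and at 4.66, 8.10, 15.7, 11.6 and 2.40 CPM in batch 2 controls 1 to 5. WD mice 2 and 4 lay among the controls, and the other 3 WD mice lay above all of them. Isg15 had a log2 fold change of 0.80 ± 1.16 against the batch 1 controls (2.61 with limma-voom) and 1.24 ± 0.58 against the batch 2 controls (edgeR FDR = 0.276). Usp18 had group means of 1.21 ± 1.96 (SD, n = 4), 2.71 ± 2.43 (SD, n = 5) and 2.56 ± 3.65 CPM (SD, n = 5) in the batch 1 controls, WD mice and batch 2 controls.

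**Figure D4:**
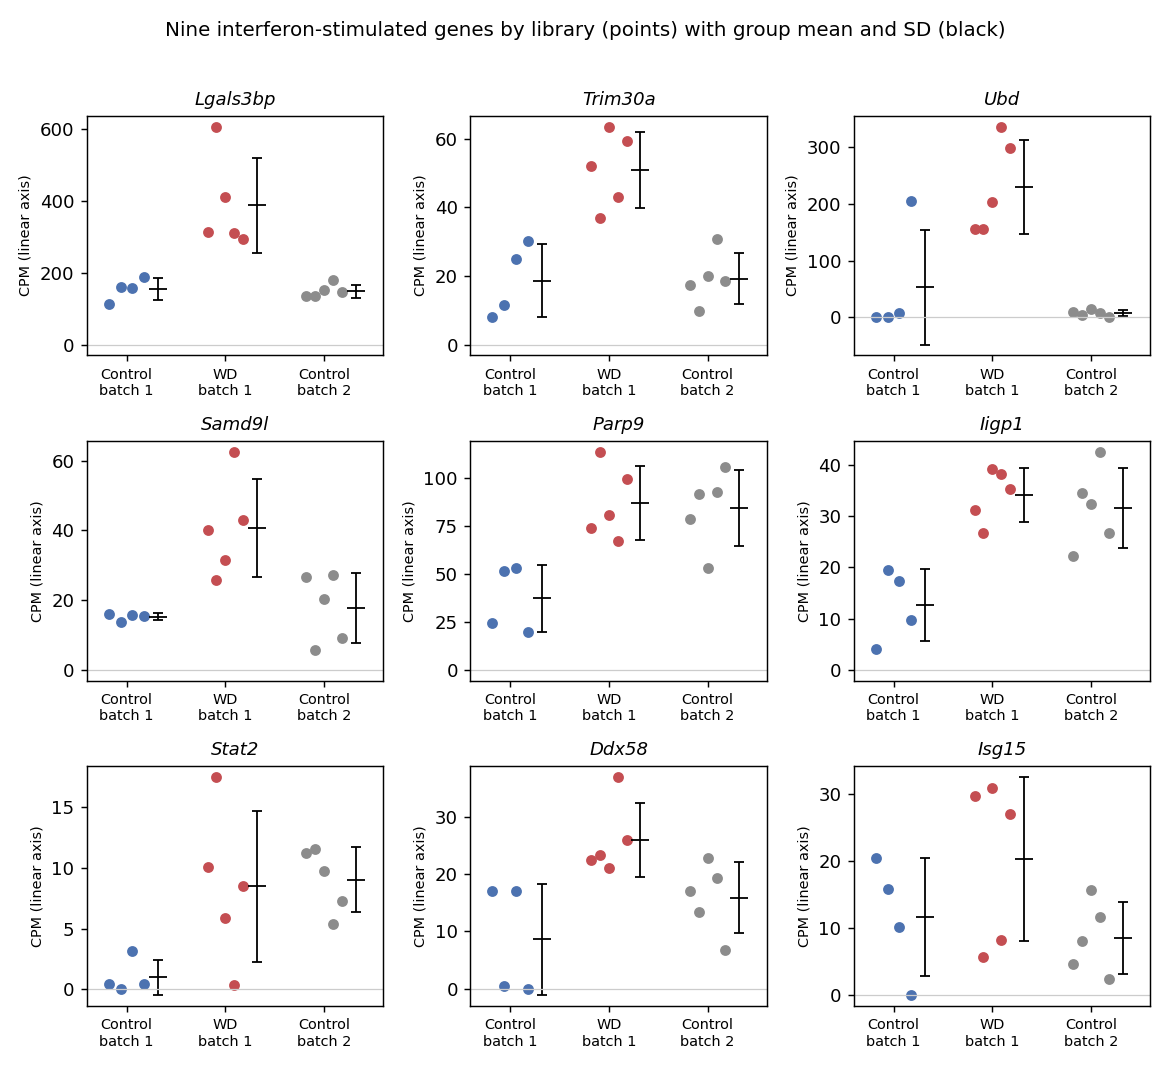
CPM of 9 members in each library (points) by group on a linear axis, with the group mean and SD in black (n = 4, 5 and 5). Lgals3bp and Trim30a have every WD point above all controls, Ubd has 1 batch 1 control at 204 CPM within the WD range, and for Parp9, Iigp1 and Stat2 the batch 2 controls overlap the WD mice and lie above all batch 1 controls.

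Of the 15 antiviral effectors, 13 were tested, and all 13 had a log2 fold change above 0 against the batch 1 controls, with a median of 1.25 (12 of 13 with DESeq2's size factors, where Ifitm3 was not above 0). Against the batch 2 controls 9 of 13 did, with a median of 0.40. Trim30a (chr7:104409026-104465193, minus strand) encodes a TRIM protein that restrains toll-like receptor signaling. It was at 8.10, 11.4, 24.8 and 30.3 CPM in batch 1 controls 1 to 4, at 52.1, 36.9, 63.5, 42.9 and 59.3 CPM in WD mice 1 to 5, and at 17.2, 9.82, 19.9, 30.7 and 18.4 CPM in batch 2 controls 1 to 5. Every WD library lay above every control of either batch. The fitted log2 fold change was 1.45 ± 0.49 against the batch 1 controls (edgeR FDR = 0.593) and 1.40 ± 0.30 against the batch 2 controls (edgeR FDR = 0.00942). The call against the batch 2 controls was lost in a single fit over the 3 groups (FDR = 0.180), where 140 genes passed in place of 773. Against all 9 controls the value was 1.41 ± 0.36 (edgeR FDR = 0.0924), and it passed without batch 1 control 1 (FDR = 0.0497) or control 4 (FDR = 0.0144). Trim30a has close relatives beside it in the genome, and since multiple alignments were counted, its reads may include theirs.

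Samd9l, which encodes a cytoplasmic restriction factor, was at 15.9, 13.8, 15.7 and 15.5 CPM in batch 1 controls 1 to 4 and at 40.1, 25.9, 31.5, 62.6 and 43.1 CPM in WD mice 1 to 5. The batch 2 controls were at 26.5, 5.72, 20.2, 27.2 and 8.98 CPM. The WD mice lay above the batch 1 controls without overlap, and only WD mouse 2 lay within the range of the batch 2 controls. Samd9l had a log2 fold change of 1.41 ± 0.47 against the batch 1 controls (edgeR FDR = 0.585) and 1.19 ± 0.41 against the batch 2 controls (edgeR FDR = 0.113).

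Ifit2 and Ifitm3 had the largest and the smallest fitted difference of the class in batch 1. Ifit2, an RNA-binding inhibitor of translation, was at 7.99 CPM in batch 1 control 1 and at 0 in the other 3. It was at 3.67, 7.94, 3.26, 17.4 and 6.33 CPM in WD mice 1 to 5, and at 4.94, 4.10, 0.0749, 7.49 and 0 CPM in batch 2 controls 1 to 5. The fitted value of 1.94 ± 1.94 rests on 1 control with counts (5.36 with limma-voom and 7.45 with the replicate number as a block), and the groups overlapped. Ifitm3, a membrane protein that blocks virus entry, was the most abundant of the class, at 351, 285, 222 and 55.6 CPM in batch 1 controls 1 to 4, at 304, 399, 234, 114 and 175 CPM in WD mice 1 to 5 and at 180, 134, 152, 316 and 138 CPM in batch 2 controls 1 to 5. The 3 groups overlapped, with a log2 fold change of 0.10 ± 0.49 against the batch 1 controls, which was -0.25 without batch 1 control 4. The remaining 9 tested effectors, Ifit1, Ifit3, Ifi44, Ifi35, Bst2, Rsad2, Cmpk2, Xaf1 and Trex1, had log2 fold changes of 0.38 to 1.48 against the batch 1 controls and of -0.50 to 1.46 against the batch 2 controls, none past an FDR of 0.05. Mx1 and Mx2, the myxovirus resistance GTPases, were too low to be tested, with at most 58 and 141 counts in any library.

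The OAS family is known for the second messenger that activates RNase L. Its 5 members on the list were barely counted in the batch 1 controls. Of the family genes outside the list, Oas1c went the other way and Oas1g did not. Oas1c was at 11.7 ± 13.6, 5.78 ± 6.40 and 1.38 ± 1.17 CPM (SD) in batch 1 controls, WD mice and batch 2 controls. Oas1g was at 0.0208 ± 0.0417, 7.11 ± 7.41 and 0.655 ± 0.61 CPM. Oas1a was at 0 in all 4 of them, at 4.16, 20.2, 4.66, 6.81 and 0 CPM in WD mice 1 to 5 and at 0.989, 0, 0.823, 1.76 and 0 CPM in batch 2 controls 1 to 5. Oasl1 was at 0 in all 4 batch 1 controls, at 10.8, 9.76, 9.40, 3.17 and 0 CPM in WD mice 1 to 5 and at 0.141, 0.858, 1.57, 1.38 and 1.60 CPM in batch 2 controls 1 to 5. For both, WD mice 1 to 4 lay above all 9 controls and WD mouse 5 was at 0. Set against an assumed floor of 3 counts in each batch 1 control, the mean level in WD mice was 27.5-fold higher for Oas1a and 25.4-fold higher for Oasl1. The batch 2 controls were 2.74-fold and 4.26-fold above that floor. A count of 0 does not show that a level lay under the floor. Irf9, for example, had 211 to 443 counts in batch 1 controls 1 to 3 and 0 in control 4. WD mouse 2 held 56.3% of the summed Oas1a level of the WD mice, and without it the value against the floor was 15-fold. Without batch 2 control 4 the Oas1a value for batch 2 against the floor was 1.74-fold. Both had an unadjusted p under 0.05 against the batch 1 controls with edgeR and neither passed the FDR (0.530 for both). Against the batch 2 controls the log2 fold changes were 3.28 ± 1.44 for Oas1a (edgeR FDR = 0.238; 2.42 without WD mouse 2 and 3.91 without batch 2 control 4) and 2.55 ± 1.20 for Oasl1 (edgeR FDR = 0.277; 1.63 with limma-voom).

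Oasl2 was at 3.42 CPM in batch 1 control 3 and at 0 in the other 3. It was at 9.46, 10.4, 11.8, 6.17 and 1.17 CPM in WD mice 1 to 5, and at 0.918, 4.10, 5.46, 6.57 and 3.49 CPM in batch 2 controls 1 to 5. WD mice 1 to 3 lay above all 9 controls, with a log2 fold change of 3.17 ± 1.97 against the batch 1 controls, which rests on 1 control with counts (2.18 without controls 1 and 4, 5.58 with limma-voom and 7.57 with the replicate block), and 0.91 ± 0.76 against the batch 2 controls. Oas2 and Oas3 were too low to be tested. Oas3 had at most 18 counts in any library, and its WD libraries all lay above the batch 1 controls, of which 1 had 1 count and 3 had 0.

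The 4 sensors of nucleic acids had log2 fold changes of 0.05 to 1.58 against the batch 1 controls, and with DESeq2's size factors 2 of them, Ifih1 and Zbp1, were not above 0. Ddx58, which encodes the RNA sensor RIG-I, was at 17, 0.417, 17.1 and 0 CPM in batch 1 controls 1 to 4, at 22.4, 23.4, 21, 37.0 and 25.9 CPM in WD mice 1 to 5 and at 17, 13.3, 22.9, 19.4 and 6.79 CPM in batch 2 controls 1 to 5. The WD mice lay above the batch 1 controls without overlap and overlapped the batch 2 controls. Ddx58 had a log2 fold change of 1.58 ± 1.23 against the batch 1 controls (edgeR FDR = 1.0; 4.15 with limma-voom and 3.47 with the replicate block) and 0.70 ± 0.36 against the batch 2 controls (edgeR FDR = 0.347). Ifih1, which encodes the related RNA sensor MDA5, was at 6.80, 27.5, 28.2 and 43.6 CPM in batch 1 controls 1 to 4, at 28.9, 27.7, 23.3, 40.1 and 17.5 CPM in WD mice 1 to 5 and at 26.7, 50.8, 19.5, 25.7 and 42.8 CPM in batch 2 controls 1 to 5. These values overlapped in all 3 groups, with a log2 fold change of 0.05 ± 0.57 against the batch 1 controls. Dhx58, a regulator of both sensors, and Zbp1, a sensor of Z-form nucleic acids, were at 0 in 5 and 2 of the 14 libraries.

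The transcription factors that carry the response showed no difference in WD mice that passed the test. Stat2, the partner of IRF9 in the type I response, was at 0.432, 0, 3.17 and 0.435 CPM in batch 1 controls 1 to 4 and at 11.2, 11.6, 9.73, 5.42 and 7.29 CPM in batch 2 controls 1 to 5. WD mice 1 to 5 were at 10.1, 17.5, 5.92, 0.396 and 8.50 CPM. The batch 2 controls lay above the batch 1 controls without overlap (3.14 ± 1.38, edgeR FDR = 0.642), and 4 of the 5 WD mice lay above them as well (3.05 ± 1.67, edgeR FDR = 1.0). Without batch 1 control 3, the one with the highest level, these values were 4.92 and 4.79, and without controls 1 and 4 they were 2.52 and 2.41. WD mice and batch 2 controls differed by -0.11 ± 0.69. Irf1, a factor induced by interferon gamma, was at 34.7, 9.84, 29.8 and 12 CPM in batch 1 controls 1 to 4, at 43.1, 7.51, 40.1, 30.8 and 22.7 CPM in WD mice 1 to 5 and at 49.6, 51.8, 29.6, 31.4 and 24.2 CPM in batch 2 controls 1 to 5. Its groups overlapped and it had the smallest fitted difference of the class, 0.41 ± 0.64 against the batch 1 controls. Irf7, the master factor of type I interferon genes, had group means of 5.50 ± 6.10, 11.3 ± 7.83 and 10.1 ± 5.83 CPM (SD, n = 4, 5 and 5 for batch 1 controls, WD mice and batch 2 controls), and Irf9 had 24.2 ± 20.3, 42.5 ± 12.8 and 27 ± 9.43 CPM.

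The GTPases, which guard the cell against intracellular pathogens, and the PARP9, PARP14 and DTX3L group, which modifies proteins by ADP-ribose and ubiquitin, held 2 members, Iigp1 and Parp9, in which every WD mouse and every batch 2 control lay above all batch 1 controls. Iigp1, an immunity-related GTPase, was at 4.10, 19.4, 17.3 and 9.65 CPM in batch 1 controls 1 to 4, at 31.2, 26.7, 39.2, 38.3 and 35.3 CPM in WD mice 1 to 5 and at 22.2, 34.5, 32.3, 42.6 and 26.7 CPM in batch 2 controls 1 to 5. Both the WD mice and the batch 2 controls lay above all batch 1 controls, and they overlapped each other. On the log2 scale the difference was 1.43 ± 0.58 for WD against the batch 1 controls (edgeR FDR = 0.849), 1.32 ± 0.54 for the batch 2 against the batch 1 controls (edgeR FDR = 0.619) and 0.10 ± 0.26 for WD against the batch 2 controls. Without batch 1 controls 1 and 4 the first of these values was 0.90 and the second 0.79.

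Parp9 showed the same order. It was at 24.4, 51.5, 53.3 and 19.9 CPM in batch 1 controls 1 to 4, at 74.3, 114, 80.7, 67.2 and 99.7 CPM in WD mice 1 to 5 and at 78.7, 91.8, 53.4, 92.8 and 106 CPM in batch 2 controls 1 to 5. WD mice and batch 2 controls each lay above all batch 1 controls, the latter by a narrow margin at batch 2 control 3. Parp9 had a log2 fold change of 1.22 ± 0.39 for WD against the batch 1 controls (edgeR FDR = 0.557), 1.17 ± 0.37 between the batches of controls (edgeR FDR = 0.475) and 0.03 ± 0.22 for WD against the batch 2 controls. Without batch 1 controls 1 and 4 the first 2 values were 0.73 and 0.69. Annotated Parp9 and Dtx3l overlap on opposite strands, and whether counting used the strand is not stated. Dtx3l was at 13.7, 34.0, 32.4 and 7.62 CPM in batch 1 controls 1 to 4, at 36.0, 25.6, 34.1, 37.2 and 35.8 CPM in WD mice 1 to 5 and at 24.6, 7.43, 30.1, 33.2 and 40.5 CPM in batch 2 controls 1 to 5. Its groups overlapped, with a log2 fold change of 0.62 ± 0.54 against the batch 1 controls, which was 0.02 without controls 1 and 4.

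In Parp14 and Gbp2 the 2 sets of controls overlapped and 4 of 5 WD mice lay above both. Parp14, an ADP-ribosyltransferase, was at 11.1, 50.6, 33.4 and 59.6 CPM in batch 1 controls 1 to 4, at 63.4, 105, 94.6, 61.7 and 36.5 CPM in WD mice 1 to 5 and at 30.4, 45.2, 37.1, 49.7 and 32.9 CPM in batch 2 controls 1 to 5. WD mice 1 to 4 lay above all 9 controls and WD mouse 5 lay among them. The log2 fold change of 0.87 ± 0.28 against the batch 2 controls (edgeR FDR = 0.0791) passed without WD mouse 5 (1.04, FDR = 0.0227), with DESeq2 (0.89, FDR = 0.0387) and under a filter of 1 CPM in every library (0.89, FDR = 0.0465). Against the batch 1 controls Parp14 was at 0.90 ± 0.48, which did not pass. Gbp2, a guanylate-binding protein, was at 5.40, 26, 28.9 and 27.3 CPM in batch 1 controls 1 to 4, at 26.2, 39.5, 49.0, 38.1 and 56.6 CPM in WD mice 1 to 5 and at 24.6, 23.4, 19.8, 37.8 and 22 CPM in batch 2 controls 1 to 5. WD mice 2 to 5 lay above all 9 controls, and the log2 fold change against the batch 2 controls was 0.70 ± 0.28 (edgeR FDR = 0.185). Against the batch 1 controls Gbp2 was at 0.93 ± 0.54, which did not pass either. Igtp, with the lowest fitted difference in batch 1, was at 4.43, 5.67, 9.84 and 24.2 CPM in batch 1 controls 1 to 4, at 11.2, 15.4, 11.8, 3.17 and 4.83 CPM in WD mice 1 to 5 and at 3.81, 20.3, 4.19, 13.7 and 9.58 CPM in batch 2 controls 1 to 5. Its groups overlapped, with a log2 fold change of -0.25 ± 0.92, which was 0.46 without batch 1 control 4. Gbp3, Gbp7, Irgm1 and Irgm2 had log2 fold changes of -0.03 to 0.86 against the batch 1 controls, none past an FDR of 0.05. Gbp7 had means of 48.2 ± 32.1, 87.9 ± 45.9 and 85.5 ± 22.8 CPM (SD) in batch 1 controls, WD mice and batch 2 controls. Its batch 2 controls thus also had a mean near that of the WD mice, but its groups overlapped.

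Around the members, the interferon genes themselves had nearly no counts, and no interferon receptor or JAK kinase gene passed the test. Of 21 interferon genes in the table, 19 were at 0 in all 14 libraries, Ifng and Ifnb1 among them. A count of 0 does not exclude a low level of any of these genes. Ifnk had 6 counts in batch 1 control 3, and Ifnz had 1 count in batch 1 control 1 and 3 in WD mouse 5. Of 5 tested receptor genes and 3 genes of JAK kinases, 0 passed an FDR of 0.05 in any comparison with edgeR or DESeq2, and 0 had an unadjusted p under 0.05 with edgeR.

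Against the batch 2 controls, 2 of 14 tested upstream sensing genes were higher in WD mice (FDR under 0.05), beside 3.93% of all genes. These were Irf8, a factor of myeloid cells (2.15 ± 0.35, edgeR FDR = 0.00118), and Mb21d1, which encodes the DNA sensor cGAS (2.67 ± 0.66, edgeR FDR = 0.0210). Of 4 tested negative regulators, Ptpn6, the phosphatase SHP-1 of blood cells, was higher (1.91 ± 0.48, edgeR FDR = 0.0219). Against the batch 1 controls 0 of the 14 and 0 of the 4 passed with edgeR. The log2 fold changes there were 2.38 ± 1.20 for Irf8, 3.59 ± 1.61 for Mb21d1 and 2.55 ± 1.51 for Ptpn6. Of 61 other interferon-stimulated genes tested against the batch 2 controls, 9 were higher, beside 3.93% of all genes, and 1 was lower, beside 2.48%. Higher were Slfn2, Epsti1, Ifi30, Ifi47, Ifi203, Ifi204, Mnda, Slfn5 and Trim12c, with log2 fold changes of 0.96 to 2.30, and lower was Ifi27l2a (-1.05 ± 0.30, edgeR FDR = 0.0453), which was at 1800 ± 1010, 2340 ± 1340 and 4800 ± 1010 CPM (SD) in batch 1 controls, WD mice and batch 2 controls. Against the batch 1 controls 0 of the 59 tested passed with edgeR, 4 had an unadjusted p under 0.05, DESeq2 called Ifit3b and Oas1g, and the median log2 fold change was 0.91. Against all 9 controls Slfn2, a regulator of immune cell quiescence, passed (2.06 ± 0.43, edgeR FDR = 0.0317). This call was lost without any 1 of WD mice 1 to 5, batch 1 control 3 and batch 2 controls 2, 3 and 4.

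Most macrophage markers, like most members, had log2 fold changes above 0 in WD mice. Between the batches of controls most macrophage markers lay below 0 and most members above. Of 12 macrophage markers, 11 were tested, and 9 were higher in WD mice than in the batch 2 controls at an FDR of 0.05, with a median log2 fold change of 1.96. Against either set of controls 10 of 11 lay above 0. The other, Cd163, was at -0.51 ± 0.43 against the batch 1 controls and -0.72 ± 0.25 against the batch 2 controls (edgeR FDR = 0.121). Against the batch 1 controls 0 passed with edgeR, 8 had an unadjusted p under 0.05, DESeq2 called C1qb, and the median was 1.42. Between the batches of controls 0 passed, 1 of 11 had a log2 fold change above 0 in batch 2, and the median was -0.52, where the members' median was 0.58. The summed level of the 12 markers was 1990 to 3240 CPM in WD mice, 469 to 1820 CPM in the batch 1 controls and 534 to 1070 CPM in the batch 2 controls, and none of the 12 was at 0 in all libraries. Batch 1 control 4, in which Ubd lay within the WD range, had the 1820 CPM. Of 8 adipocyte markers, 6 were lower and 1, Lep, was higher in WD mice than in the batch 2 controls. Against the batch 1 controls 0 of 8 passed, with 4 above 0 and a median of 0.02, and between the batches of controls 0 passed, with all 8 above 0 in batch 2 and a median of 1.03. Their summed level was 25100 to 38300 CPM in WD mice and 53700 to 65300 CPM in the batch 2 controls. In batch 1 controls 1 to 4 it was 6230, 47400, 46200 and 30600 CPM. The macrophage and adipocyte values that involve the batch 1 controls hold controls 1 and 4. How far they depend on these 2 libraries was not tested. Markers of plasmacytoid dendritic cells, the main source of type I interferon in blood, summed to at most 48.8 CPM and T cell markers to at most 29 CPM in any library. B cell markers reached 89.9 CPM in WD mouse 3, and 9.5 CPM in the next highest library, WD mouse 5. Natural killer cell markers reached 269 CPM in batch 1 control 1, which had 2492 counts of Klrb1c. The next highest library, WD mouse 4, had 13.8 CPM. Of the plasmacytoid dendritic cell markers, Cox6a2, also known as a muscle subunit of cytochrome c oxidase, was higher in WD mice than in the batch 2 controls (edgeR FDR = 0.0143). It had 16 to 190 counts in WD mice, 0 to 6 in the batch 2 controls, 44 in batch 1 control 4 and 0 in the other batch 1 controls. The part of these cells in the members' differences was not tested.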

How the data were processed

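Epididymal fat RNA of 14 mice was sequenced with single-end reads. Reads were aligned by the authors with Bowtie2 to mm10 (per the labels), and Bedtools coverage gave raw counts for 23282 genes, which the authors deposited. Both unique and multiple alignments entered these counts. They also deposited log2 values of TMM-normalized CPM with 1 added, which a recomputation matched within 0.05 for the members. Reads of paralogs or overlapping genes may be shared, and 14 members overlap another gene in GENCODE M21 (4 of them on the same strand: Trex1 with Atrip, Igtp with Irgm2, Gbp7 with Gm43802 and Parp14 with Gm49730). No molecular identifiers are mentioned, so depth covers counting error only.

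The members and gene lists were chosen with earlier results of these data known. Counts were tested over all genes with edgeR 4.0.16 in R 4.3.3 (quasi-likelihood test, TMM, edgeR's filter on low counts, Benjamini-Hochberg FDR of 0.05), fitting the libraries of each comparison without covariates. The fitting steps were tested on simulated data. Members with a whole group at 0 were compared with a floor of 3 counts per library. Per-library values are given for members with an FDR under 0.05 or an unadjusted p under 0.05, those whose groups did not overlap, and the largest and smallest fold change of each role within batch 1. Alternatives were other scalings and filters, DESeq2 1.42.0, limma-voom, a single fit over the 3 groups, a batch term, a replicate block and libraries left out. Labels name separate mice.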

Additional observations from a re-analysis of the deposited data

Results flagged for a closer look

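In groups of 4 or 5 libraries, a library was taken to stand apart when its gap to the nearest other library was large against the range of its group by Dixon's criterion, on the log2(CPM + 1) scale. Over 60 groups (20 members in 3 groups each) 4 values stood apart, where chance alone would give about 3. Ifit2 was at 3.17 in batch 1 control 1 (74 counts) and at 0 in the other 3 batch 1 controls. Oasl2 was at 2.14 in batch 1 control 3 (41 counts) and at 0 in the other 3. Gbp2 was at 2.68 in batch 1 control 1 (50 counts), and the other 3 lay between 4.76 and 4.90. Dtx3l was at 4.74 in WD mouse 2, and the other 4 WD mice lay between 5.13 and 5.26.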

How the results depend on the processing

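Of 48 fold changes of members taken through the alternatives, 40 kept their direction in each one run, among them all those past an FDR of 0.05, and 8 reversed under some. Within batch 1 these were Ifitm3 (0.10), which was -0.00 with DESeq2 and its size factors, -0.03 under a filter of 1 CPM and -0.05 without controls 1 and 4, Ifih1 (0.05), which was -0.03, -0.03 and -0.02 there and -0.05 with library totals alone, and Igtp (-0.25), which was 0.20 with the replicate block and 0.26 without controls 1 and 4. With each library left out they spanned -0.25 to 0.38, -0.27 to 0.38 and -0.51 to 0.46. Against the batch 2 controls Stat2 spanned -0.55 to 0.19, Iigp1 -0.01 to 0.22 and Parp9 -0.10 to 0.12. Between the batches of controls Lgals3bp spanned -0.18 to 0.07, and Ubd (-2.81) spanned -3.25 to 1.56 and was 1.65 with limma-voom, 2.52 with the replicate block and 0.98 without controls 1 and 4. The cause of these changes was not tested. The number of members past an FDR of 0.05 against the batch 1 controls (0) was 3 with DESeq2 and 1, Ubd, without batch 1 controls 1 and 4, and the pathway genes called (0) became 2 and 1. Over all genes tested, 114 and 108 passed in these 2 fits. Against the batch 2 controls a single fit over the 3 groups called 1 member, Lgals3bp, in place of 3, and 1 pathway gene in place of 13, where the replicate block called 7. Over all genes, 140 passed in the single fit and 594 with the replicate block, in place of 773. Between the batches of controls DESeq2 called 1 pathway gene in place of 0, and without batch 1 controls 1 and 4 the members not overlapping were 7 in place of 4. With fewer libraries genes of any kind overlap less, and the share over all genes is not given for that fit. Against all 9 controls the members called (1) were 2 under a filter of 1 CPM in each library, with DESeq2 and with the replicate block, 3 with limma-voom and without controls 1 and 4, and 0 with batch as a covariate. Over all genes the calls against all 9 controls (67) moved as well. They were 128, 236 and 93 in the first 3 of these fits, 223 and 619 in the next 2 and 1 with the batch term. The pathway genes called there (1) were 2 with DESeq2 and the replicate block, 3 with limma-voom, 7 without controls 1 and 4 and 0 with the batch term, and library totals alone left 1 member not overlapping in place of 2. No share over all genes is given for that last count.

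With each library left out in turn, the members called were 0 to 0 against the batch 1 controls, 3 to 4 against the batch 2 controls, 0 to 0 between the batches of controls and 1 to 3 against all 9 controls, with 3 without batch 1 control 4 and 2 without control 1. Over all genes, 289 and 190 passed in these last 2 fits, beside 67 with every library. The pathway genes called ranged over 0 to 1, 6 to 17, 0 to 0 and 0 to 5. The 1 within batch 1 and the 5 against all 9 controls came without batch 1 control 4. Against the batch 2 controls the count was 6 without batch 2 control 1 or 3, 7 without batch 2 control 2 and 8 without batch 2 control 5, WD mouse 1 or WD mouse 3. Members not overlapping ranged over 6 to 10, 3 to 7, 4 to 6 and 2 to 5, and the 10, 7 and 5 came without WD mouse 5. Leaving out a library cannot make the groups of a gene overlap more. Shares over all genes are not given for these fits, so the rises are not read as particular to the members.

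Replicate numbers did not pair the samples. Same-numbered libraries had correlations of their deviations from the group means of -0.02 to 0.08 for WD and the batch 1 controls, and -0.04 to 0.06 for WD and the batch 2 controls. The median fold change of all genes within batch 1 was 0.03 on the log2 scale with TMM, 0.42 with limma-voom and 0.29 with the replicate block, and the members' median was 1.09, 1.95 and 1.59. At these depths a difference under 3 counts per library could not be shown.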
